A study of Mus musculus with 90 samples.

Results

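The response of YUMM2.1 cells to fresh interferon-gamma (IFNγ) was measured after they had already been kept in the cytokine for 1 week. YUMM2.1 is a mouse melanoma line, and the 6 libraries were chosen by their labels out of 90 in the series: 3 from cells exposed continuously to 50 IU/mL IFNγ for 1 week and collected without rechallenge (0 h), and 3 from cells of the same exposure collected 24 h after IFNγ was added again. Both groups therefore share the week in IFNγ, and they differ in the rechallenge. The wider series holds 15 groups of 3 libraries in YUMM2.1 and 15 in CT26, a mouse colon carcinoma line, with exposures of 1, 2 or 3 weeks, collection at 0, 2 or 24 h after rechallenge, and control cultures that received bovine serum albumin in place of IFNγ. The groups used beside the main pair were the control cells at 0 weeks, the naive cells given their first IFNγ for 24 h, the 1-week control, the 2 h rechallenge at 1 week, the 0 h and 24 h groups at 2 and 3 weeks, and the 2 CT26 groups at 1 week. RNA was counted by 3′ digital gene expression, which reads transcripts near their 3′ ends, and values are given as CPM, the standard unit that divides the count of a gene by the scaled size of its library. Each result comes from a single cell line, and the replicates are described as triplicate experiments without further detail, so p-values measure the spread between these samples.

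IFNγ binds a receptor of 2 chains whose associated kinases, JAK1 and JAK2, phosphorylate transcription factors of the STAT family. STAT dimers bind gamma-activated sites (GAS) in the promoters of early genes such as Irf1, and IRF1 and a complex that holds STAT2 and IRF9 then act through a second kind of element, the interferon-stimulated response element (ISRE). The genes reached in this way include guanylate-binding proteins and immunity-related GTPases, which act against intracellular pathogens, the immunoproteasome and the machinery that loads peptides on major histocompatibility complex (MHC) class I, chemokines that attract T cells, and PD-L1 (Cd274), the ligand of the inhibitory receptor PD-1. In tumour cells these genes set how well T cells can see the cell, and long exposure to IFNγ has been linked to resistance to checkpoint antibodies.

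The 6 libraries held between 484092 and 1965197 counts, and replicate 3 of the 0 h group was the shallowest, at 34.5% of the median of its line. Of the markers of the melanocyte lineage, 11 of 19 had a count in each group, with summed levels of 349 to 390 CPM without rechallenge and 315 to 515 CPM after it. Sox10, a regulator of the lineage, was present, while Tyr, Tyrp1, Mlana, Kit, Ednrb, Oca2, Slc45a2 and Trpm1 had no count in either group. The pigment genes Dct and Pmel and the listed marker Mitf each had at most 4 counts in a library. In CT26 at 0 h of week 1 the same list summed to 107 to 146 CPM. Epithelial markers summed to at most 4.13 CPM. The leukocyte and endothelial list summed to 338 to 514 CPM at 0 h and 353 to 401 CPM at 24 h, nearly all of it Pecam1, and Ptprc, Cd3e, Itgam, Cdh5 and Kdr were at 0. In bulk libraries such as these, fewer cells that express a gene and less RNA of it per cell cannot be told apart.

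The comparison asked which transcripts fresh IFNγ had moved by 24 h in cells already in IFNγ. At an adjusted p below 0.05 in edgeR's quasi-likelihood test, 107 of 9589 genes tested were higher after rechallenge (1.12%) and 29 were lower (0.302%). The rise was large and the fall small: 91 of the risen genes and 14 of the fallen changed at least 2-fold, and 46 and 2 changed at least 4-fold. The median log2 fold change was 1.71 among the risen genes and -0.98 among the fallen, against 0.00349 over all genes tested. Among genes with counts in both groups the largest fitted rises were those of Il18bp, Gm2000, Apol6, Gm12250, Usp18, Gbp2, Gbp4 and Batf2. Of the risen genes 64 of 107 were members of the gene lists described here, and of the fallen 5 of 29. The lists hold 502 distinct genes, tested or not. They were chosen with earlier results of these data known, so these 2 counts are descriptive and not a test. In all 107 risen and all 29 fallen genes the 3 libraries of one group lay beyond the 3 of the other, a separation also seen upwards in 6.74% and downwards in 6.15% of all genes tested. Leaving out the shallow replicate 3 of the 0 h group gave 105 genes, 85 higher and 20 lower.

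**Figure D1:**
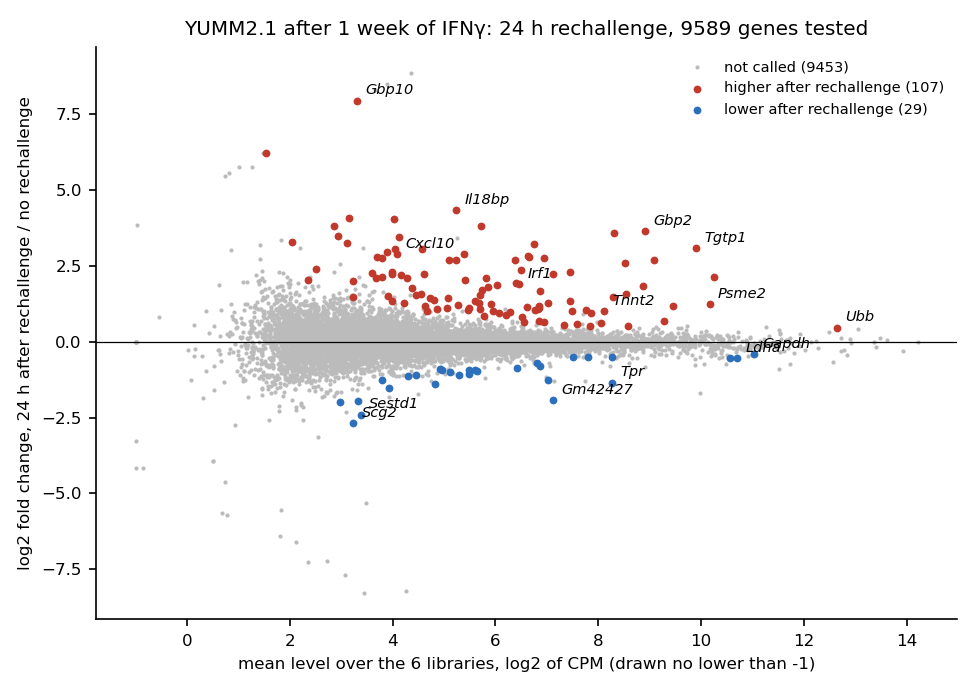
Change against level for 9589 genes in YUMM2.1 cells after 1 week of IFNγ. The horizontal axis is the log2 of the mean CPM over the 6 libraries, the vertical axis the log2 fold change 24 h after rechallenge over no rechallenge; red points are the 107 higher and blue points the 29 lower genes at an adjusted p below 0.05. The red points spread to large changes at all levels, and the blue points at high level (Gapdh, Ldha) lie close to 0; the fitted values of Gbp10 and Serpina3g, which had no count without rechallenge, depend on the small count added by the fit.

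Genes that carry the signal itself moved unevenly. Stat2, a member of the complex that binds ISREs, went from 6.07, 2.77 and 6.39 CPM to between 17.5 and 22.4 CPM, a log2 fold change of 2.11 (SE 0.51, edgeR adjusted p = 0.0159), and was called in 7 of the 11 alternative analyses. Of the receptor chains, kinases and STATs, 2 of 8 tested genes passed the threshold, with a median log2 fold change of 0.66. The receptor chain Ifngr1 had a log2 fold change of -0.68 (SE 0.26, adjusted p = 0.301) and Jak2 of 1.25 (SE 0.60, adjusted p = 0.528 in edgeR), and neither passed.

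Of the transcription factors that act downstream, 3 of 5 tested IRF and BATF genes rose. Irf1, the early relay of the pathway, stood at 40.0, 36.0 and 36.2 CPM without rechallenge and at 152, 137 and 130 CPM at 24 h (log2 fold change 1.88, SE 0.18, edgeR adjusted p = 5.10e-11). All 3 rechallenged libraries were above every library without rechallenge by a wide gap. Batf2, a partner of IRF1, rose from at most 2.13 CPM to between 9.11 and 18.6 CPM (log2 fold change 3.47, SE 0.74, edgeR adjusted p = 0.00384). Irf9 rose by a log2 fold change of 0.65 (SE 0.17, edgeR adjusted p = 0.0265). Among 9 tested inhibitors of the pathway only Usp18, which removes ISG15 from proteins and restrains type I interferon receptors, passed: 3, 1 and 0 counts became 14, 20 and 15 counts, a log2 fold change of 3.79 (SE 0.80, edgeR adjusted p = 0.00374). Socs1, the main inhibitor of the JAKs, was higher in each rechallenged library (10.1 to 23.6 CPM) than in any other (4.55 to 8.52 CPM), but its log2 fold change of 1.29 (SE 0.43) had an adjusted p of 0.191 in edgeR.

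The upstream one of the RefSeq promoters of Irf1 shows the first kind of element. The 250 bases before its start (GRCm38.p6, chr11:53769764-53770013, plus strand) are printed 5′ to 3′ because Irf1 is the textbook GAS gene, with the only match to the letters TTCNNNGAA in capitals, 90 bases before the start:
Irf1: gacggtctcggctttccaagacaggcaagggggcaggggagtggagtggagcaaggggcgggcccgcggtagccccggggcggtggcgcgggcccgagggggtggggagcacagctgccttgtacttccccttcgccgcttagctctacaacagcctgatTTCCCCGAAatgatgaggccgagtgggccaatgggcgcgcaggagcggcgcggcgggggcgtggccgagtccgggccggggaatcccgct

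Guanylate-binding proteins (GBPs), large GTPases that coat and open pathogen vacuoles, formed the most strongly changed list. All 9 tested members rose, with log2 fold changes from 2.08 upwards and a median of 3.23. Gbp2 stood at 72.3, 85.9 and 40.5 CPM without rechallenge and at 936, 928 and 810 CPM at 24 h, a log2 fold change of 3.64 (SE 0.14, edgeR adjusted p = 2.89e-24). The lowest rechallenged library was far above the highest other library. Gbp4 rose from 55.6, 49.3 and 34.1 CPM to 629, 647 and 492 CPM (log2 fold change 3.58, SE 0.23, edgeR adjusted p = 2.39e-16). Gbp6 rose from 9.61, 26.1 and 36.2 CPM to 205, 192 and 178 CPM (log2 fold change 3.23, SE 0.29, edgeR adjusted p = 3.46e-11). Neither gene's groups overlapped, though the Gbp6 libraries without rechallenge were spread widely. Gbp10 had no count in the 3 libraries without rechallenge and 19, 42 and 10 counts after it, at least 28.1-fold higher against a floor of 3 counts over the group. Gbp11 had 3 counts in all without rechallenge and 26 after it, a ratio of 10.3 (95% interval 3.15 to 53.1, counting error only), and its call was kept in 4 of 10 alternative analyses. Serpina3g, a serpin outside this family, likewise had 0, 0 and 0 counts before and 2, 10 and 10 after, at least 8.70-fold higher, and its call was kept in 5 of 10 alternatives. Gbp10 and Gbp6 each overlap the gene model Gm43302 on the same strand. Gbp4, Gbp8 and Gbp9 overlap one another on the same strand, and Gbp7 overlaps Gm43802. In all of these genes reads could be split between the models.

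The 250 bases before the start of Gbp2 (GRCm38.p6, chr3:142620413-142620662, plus strand) show the second kind of element, with the match to the ISRE letters (TTTC, any NN, then TTTC) in capitals, 59 bases before the start:
Gbp2: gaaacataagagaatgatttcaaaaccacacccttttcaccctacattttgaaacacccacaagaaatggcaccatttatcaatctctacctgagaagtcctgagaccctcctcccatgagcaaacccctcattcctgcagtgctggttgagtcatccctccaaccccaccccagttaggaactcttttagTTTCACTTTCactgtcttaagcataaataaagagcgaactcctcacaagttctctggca

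Immunity-related GTPases (IRGs), which act with the GBPs on vacuoles, rose in 10 of 11 tested members, with a median log2 fold change of 2.67. Tgtp1 stood at 162, 337 and 72.4 CPM without rechallenge and at 1539, 2104 and 1509 CPM at 24 h (log2 fold change 3.07, SE 0.60, edgeR adjusted p = 0.00100). Igtp rose from 118, 118 and 63.9 CPM to 640, 700 and 572 CPM (log2 fold change 2.59, SE 0.17, edgeR adjusted p = 9.24e-16). In both genes the groups were clearly separate, while the 0 h libraries of Tgtp1 differed among themselves by more than those of Igtp. Iigp1, a GTPase that loads on vacuoles, rose from 164, 142 and 132 CPM to 950, 1006 and 879 CPM (log2 fold change 2.67, SE 0.16, edgeR adjusted p = 6.72e-17). Irgm1, which regulates the other IRGs, had a smaller log2 fold change of 1.82 (SE 0.13, edgeR adjusted p = 1.74e-14). Tgtp1 and Tgtp2 are near copies, Tgtp1 overlaps Gm12185, and Igtp overlaps Irgm2 on the same strand, so the split of reads among them is uncertain.

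In the promoters of 5 risen genes of this family, or overlapping it, a GAS and an ISRE stood side by side in the same arrangement. They are printed from GRCm38.p6 as 35 bases, 5′ to 3′ along the gene, with the GAS and then the ISRE (read on the other strand, as GAAA and GAAA with NN between) in capitals and 2 bases between them. The windows are Gm12185 at chr11:48927241-48927275, Tgtp1 at chr11:48992307-48992341 and Tgtp2 at chr11:49064266-49064300 on the minus strand, and Igtp at chr11:58199504-58199538 and Irgm2 at chr11:58214895-58214929 on the plus strand:
Gm12185: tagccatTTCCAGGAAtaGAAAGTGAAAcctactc
Tgtp1: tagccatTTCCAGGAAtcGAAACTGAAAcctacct
Tgtp2: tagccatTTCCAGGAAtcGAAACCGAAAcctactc
Igtp: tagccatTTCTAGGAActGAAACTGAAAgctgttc
Irgm2: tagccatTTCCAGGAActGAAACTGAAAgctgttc
Their first capital lay 45 (Igtp) to 88 (Tgtp1) bases before the start. The joined letters (TTCNNNGAA, NN, GAAA, NN, GAAA), searched on both strands after the 5 had been seen, were in 5 of 32851 RefSeq promoters, or 0.0152%, and these were the same 5 genes. The genes are related in sequence, so the windows are not independent.

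Over all risen genes, promoters from 250 bases before to 50 after the start were found for 72 of 107 genes (99 promoters). The GAS letters were in 22.2% of them and in 8.30% of all 32851 promoters, and the ISRE letters in 30.3% against 3.44%, both strands searched. Of the fallen genes, 22 of 29 had a promoter (29 promoters), of which 10.3% held GAS letters and 0 of 29 held ISRE letters. A match says only that these letters are present. At least one of the elements was in a promoter of 52.8% of the matched risen genes and 12.9% of all genes, and several strongly risen genes, among them Il18bp and Cd274, had neither in this window.

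**Figure D2:**
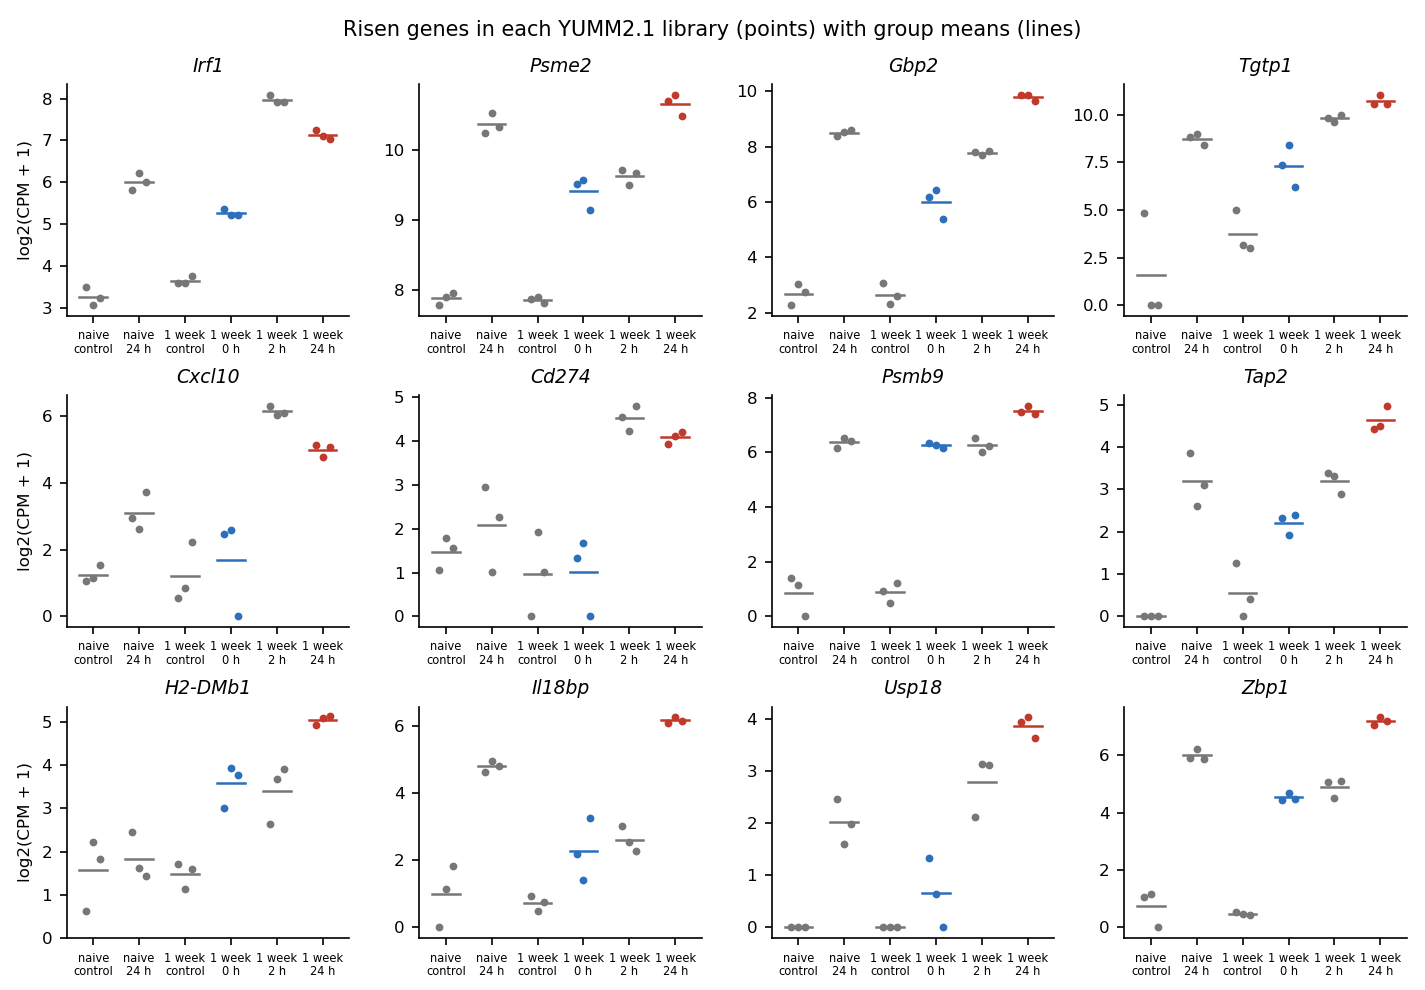
Levels of 12 risen genes in each YUMM2.1 library, as log2(CPM + 1) on axes of differing range that need not start at 0, in 6 groups: naive control, naive cells after 24 h of IFNγ, 1-week control, and 1 week of IFNγ at 0 h (blue), 2 h and 24 h (red) after rechallenge; lines are group means. In every panel the red points lie above all blue points; Irf1, Cxcl10 and Cd274 had higher mean levels at 2 h than at 24 h, and Il18bp, Zbp1 and Psmb9 stayed near the 0 h level at 2 h.

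The immunoproteasome subunits Psmb8, Psmb9 and Psmb10, which replace the standard catalytic subunits, and the activator subunits Psme1 and Psme2 all rose, 5 of 5, with a median log2 fold change of 1.26. Psmb9 stood at 79.9, 77.1 and 70.3 CPM without rechallenge and at 179, 206 and 168 CPM at 24 h (log2 fold change 1.26, SE 0.18, edgeR adjusted p = 2.59e-06). Psmb10 rose from 179, 206 and 175 CPM to 583, 605 and 486 CPM (log2 fold change 1.57, SE 0.13, edgeR adjusted p = 1.78e-12). The groups did not overlap in any of the 5 genes. Psme1 was spread more widely than Psmb9 and Psmb10, at 232, 267 and 163 CPM at 24 h in a fit of both lines. The 3 standard subunits Psmb5, Psmb6 and Psmb7 had log2 fold changes of -0.39, 0.17 and -0.02, and 0 of 3 passed.

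In peptide transport and loading, 4 of 8 tested genes rose: the transporter subunits Tap1 and Tap2, the chaperone Tapbp and the trimming peptidase Erap1. Tap2 stood at 4.05, 2.77 and 4.26 CPM without rechallenge and at 20.5, 21.6 and 30.4 CPM at 24 h (log2 fold change 2.75, SE 0.61, edgeR adjusted p = 0.00521). Tapbp had a log2 fold change of 1.54 (SE 0.27, edgeR adjusted p = 0.000158) and Erap1 of 1.71 (SE 0.23, edgeR adjusted p = 8.72e-07). Tap1, which overlaps Psmb9 on the opposite strand, was at the threshold (log2 fold change 1.42, SE 0.39, edgeR adjusted p = 0.0486) and was called in 3 of 11 alternatives. Of the MHC class I chains with B2m and their regulator Nlrc5, 2 of 9 rose, both nonclassical: H2-T22 from 98.6, 115 and 74.5 CPM to 269, 264 and 225 CPM, and H2-M3 from 8.60, 8.87 and 23.4 CPM to 37.0, 34.8 and 28.9 CPM. Neither gene's groups overlapped, and H2-M3, whose replicate 3 at 0 h was high, was called in 6 of 11 alternatives. The classical chain H2-D1 (221, 215 and 213 CPM, then 272, 242 and 340 CPM; log2 fold change 0.40, SE 0.16, adjusted p = 0.358 in edgeR) and B2m (log2 fold change 0.28, SE 0.16, adjusted p = 0.640 in edgeR) did not pass. Nor did the classical chain H2-K1, with a log2 fold change of 1.04. All 9 tested genes of this class I list had positive log2 fold changes, with a median of 1.04.

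Of the MHC class II genes, which present peptides to helper T cells, 4 were tested and 1 rose. H2-DMb1, a chain of the peptide-exchange factor, went from 7.08, 14.4 and 12.8 CPM to 29.8, 33.2 and 34.2 CPM (log2 fold change 1.55, SE 0.39, edgeR adjusted p = 0.0251; called in 6 of 11 alternatives). H2-Aa had 5, 11 and 1 counts without rechallenge and 9, 13 and 22 after it (adjusted p = 0.339), and H2-Eb1 3, 12 and 1 against 10, 17 and 12 counts (adjusted p = 0.508 in edgeR). The raw count ranges of both presenting chains overlapped, but the libraries held between 484092 and 1965197 counts. Scaled to library depth, neither gene's groups overlapped, a separation seen upwards in 6.74% of all genes tested. The log2 fold changes were 1.61 for H2-Aa and 1.53 for H2-Eb1, and both genes remained at few reads.

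Genes that act on lymphocytes were mostly too low to test. Cd274 rose from 1.52, 2.22 and 0 CPM to 14.4, 16.2 and 17.5 CPM, a log2 fold change of 3.25 (SE 0.56, edgeR adjusted p = 0.000126), the single call among 5 tested checkpoint and lymphocyte ligands. The groups did not overlap in any library. Cxcl10, a chemokine for activated T cells, rose from 4.55, 4.99 and 0 CPM to 33.9, 26.3 and 32.7 CPM (log2 fold change 2.87, SE 0.41, edgeR adjusted p = 2.34e-06), the single call among 6 tested chemokine genes with Csf1. Il18bp, a secreted inhibitor of interleukin-18, had the largest fitted change among the called genes with a count in each group: from 3.54, 1.66 and 8.52 CPM to 66.7, 75.8 and 69.9 CPM (log2 fold change 4.34, SE 0.43, edgeR adjusted p = 3.30e-10).

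Antiviral and nucleotide-related interferon genes followed. Of 15 tested antiviral effectors 10 rose (median log2 fold change 1.04), among them Rtp4 at 2.81, Ifit3b at 3.06, Oasl2 at 2.96 and Ifitm3 at 1.18. Rtp4, a membrane-associated factor that acts against viral replication, went from 23.3, 29.9 and 17.0 CPM to 196, 189 and 144 CPM. Of the ISG15 system, which tags proteins with a ubiquitin-like molecule, 4 of 5 rose: Isg15, the conjugating enzyme Ube2l6, the ligase Herc6 and Usp18. Isg15 was low, at 1.01, 3.33 and 0 CPM against 9.24, 13.1 and 7.60 CPM, and was called in 3 of 11 alternatives, Herc6 in 2 and Ube2l6 in all 11. Of 9 cytosolic nucleic acid sensors only Zbp1, a sensor that can start necroptosis, passed, from 20.7, 24.4 and 21.3 CPM to 131, 159 and 144 CPM (log2 fold change 2.70, SE 0.21, edgeR adjusted p = 1.09e-13). Its libraries were tight within each group. Parp9 (log2 fold change 2.23, SE 0.33, edgeR adjusted p = 8.30e-06) and Parp14 (2.23, SE 0.42, edgeR adjusted p = 0.000532), ADP-ribosyltransferase family members that modulate interferon signalling, were 2 of 7 tested members of their list to pass, and all 7 had positive log2 fold changes with a median of 1.46. In the PYHIN family of DNA-binding proteins 3 of 6 rose, Ifi204, Ifi211 and Mndal, with log2 fold changes of 0.98, 0.95 and 1.28.

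**Figure D3:**
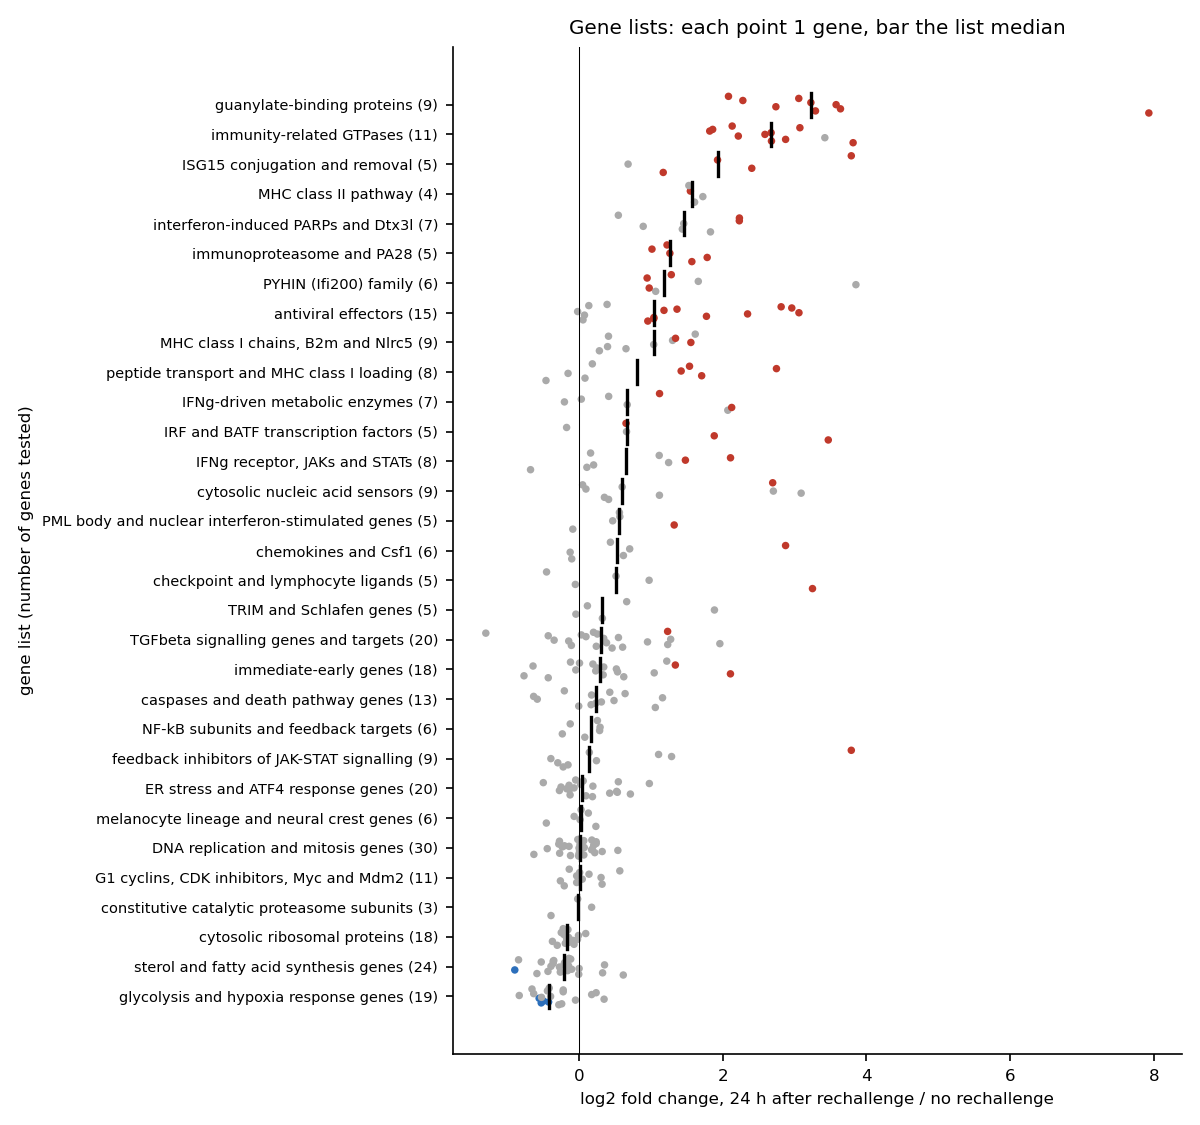
Log2 fold change 24 h after rechallenge over no rechallenge for every tested gene of each list with at least 3 tested genes; red points passed upwards and blue downwards at an adjusted p below 0.05, grey did not pass, and black bars are list medians. Guanylate-binding proteins (median 3.23) and immunity-related GTPases (2.67) stand at the top, and glycolysis and hypoxia genes (-0.42) at the bottom.

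In the lists of other processes few tested genes rose. Egr1 (log2 fold change 2.11, SE 0.45, edgeR adjusted p = 0.00317) and Junb (1.34, SE 0.36, edgeR adjusted p = 0.0467), both immediate-early transcription factors, were 2 of 18 tested genes of their class to rise. Thbs1 was 1 of 20 TGFbeta signalling genes and targets. Among 30 DNA replication and mitosis genes, 18 cytosolic ribosomal proteins, 20 genes of the endoplasmic reticulum stress response, 13 caspases and death genes, 11 genes of the G1 cyclin list, 6 NF-kB genes and 5 TRIM and Schlafen genes, 0 passed in either direction in edgeR, while over all genes tested 887 had an unadjusted p below 0.05 and DESeq2 called 143. The medians of the replication and ribosomal lists were 0.01 and -0.17. Gm2000 had 0, 4 and 0 counts without rechallenge and 21, 12 and 27 after it (log2 fold change 4.06, SE 1.07, edgeR adjusted p = 0.0347). In the 1-week controls it ranged from 0 to 51 counts, so it varied between libraries of other groups as well.

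Most fallen genes, 24 of 29, were in none of the lists. Of 19 tested glycolysis and hypoxia genes 4 fell and 0 rose, with a list median of -0.42. Ldha, which turns pyruvate into lactate, went from 1977, 2134 and 1857 CPM to 1493, 1402 and 1170 CPM, a log2 fold change of -0.56 (SE 0.12, edgeR adjusted p = 0.00265). Eno1, a glycolytic lyase, went from 1789, 1894 and 1693 CPM to 1304, 1245 and 1186 CPM (log2 fold change -0.53, SE 0.09, edgeR adjusted p = 0.000200). In both, every rechallenged library was below every other, though the fall was modest. Gapdh fell by 0.42 on the log2 scale (SE 0.11, edgeR adjusted p = 0.0360) and Gpi1 by 0.50 (SE 0.12, edgeR adjusted p = 0.0102). Eno1 was called in all 11 alternatives, Ldha in 10, Gpi1 in 7 and Gapdh in 4.

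The largest falls were in genes of low level. Scg2, a granin of secretory granules, stood at 12.6, 11.6 and 25.6 CPM without rechallenge and at 2.05, 0.773 and 3.80 CPM at 24 h (log2 fold change -2.69, SE 0.50, edgeR adjusted p = 0.000496), and was called in all 11 alternatives. Sestd1 went from 13.7, 16.1 and 23.4 CPM to 3.08, 0 and 6.08 CPM (log2 fold change -2.40, SE 0.50, edgeR adjusted p = 0.00228). S1pr3, a receptor for sphingosine-1-phosphate, went from 35.9, 44.4 and 44.7 CPM to 10.3, 20.9 and 14.4 CPM (log2 fold change -1.40, SE 0.26, edgeR adjusted p = 0.000376). None of these genes' groups overlapped, which was also a condition for naming them. Rab7b (log2 fold change -1.96), BC030867 (-1.54) and Mlip (-1.28) fell as well, called in 8, 5 and 3 of 11 alternatives. Zdhhc12, from 10.1, 13.3 and 14.9 CPM to 1.03, 5.41 and 2.28 CPM, was called in 3.

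A further 3 of the 10 largest falls rested on 1 library. Tpr, a nuclear pore protein, stood at 211, 181 and 973 CPM without rechallenge and at 166, 176 and 150 CPM after it. Gm42427 stood at 96.1, 60.4 and 522 CPM against 55.5, 44.1 and 52.4 CPM, and the mitochondrial transcript mt-Nd4l at 122, 94.3 and 356 CPM against 54.4, 89.7 and 67.6 CPM. The high value is in each case replicate 3 of the 0 h group, the shallowest library of the 6. Without it the log2 fold changes moved from -1.35 to -0.27 for Tpr, from -1.93 to -0.65 for Gm42427 and from -1.26 to -0.61 for mt-Nd4l, and edgeR's adjusted p became 0.930, 0.745 and 0.565. These 3 transcripts were also high in the 1-week controls, at mean levels of 462, 276 and 155 CPM.

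**Figure D4:**
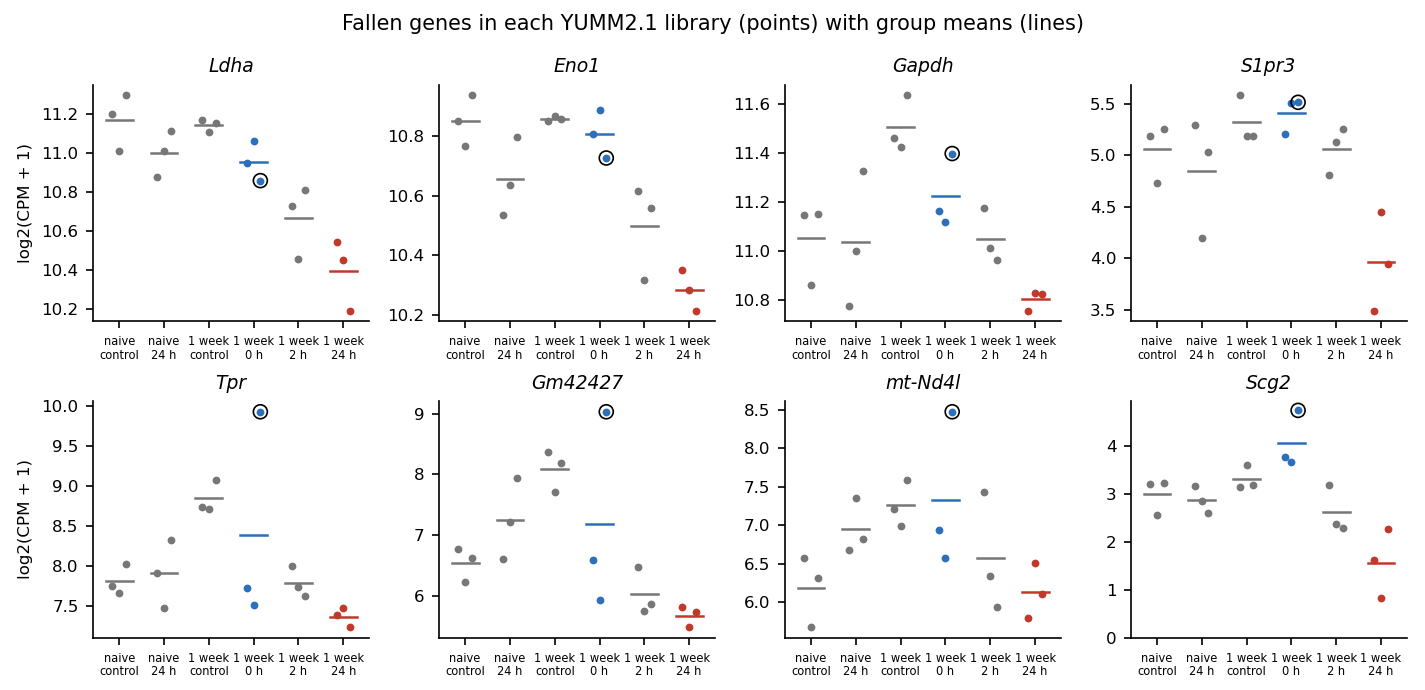
Levels of 8 fallen genes in each YUMM2.1 library, as log2(CPM + 1) on axes that do not all start at 0, in the same 6 groups and colours as for the risen genes; the ring marks replicate 3 at 0 h of the 1-week group. Ldha, Eno1 and Gapdh are lower at 24 h (red) than at 0 h (blue) in every library by a small step, while in Tpr, Gm42427 and mt-Nd4l the ringed library alone is far above the others of its group.

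The 2 h group shows which changes were early. At 2 h after the 1-week rechallenge 48 genes were higher (0.501%) and 11 lower (0.115%) than at 0 h in edgeR, and between 2 h and 24 h 54 rose (0.563%) and 14 fell (0.146%). The 2 h, 24 h and 0 h comparisons share libraries, and their values are set side by side only. Immunoproteasome and PA28 genes were near the 0 h level at 2 h (median log2 fold change 0.17, 0 of 5 called), and GBPs were part of the way (median 1.62, 5 of 9 called). From 2 h to 24 h the largest rises were Il18bp (log2 fold change 3.65, SE 0.39), 2010005H15Rik (2.81, SE 0.64), Zbp1 (2.33, SE 0.20), H2-M3 (2.17, SE 0.38) and Apol9b (2.09, SE 0.48). Il18bp stood at 7.11, 4.77 and 3.84 CPM at 2 h, so its rise fell between 2 h and 24 h in all 3 libraries.

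Another group of genes peaked before 24 h. Cxcl10 stood at 78.3, 64.4 and 67.9 CPM at 2 h, above all 3 libraries at 24 h, and its log2 fold change from 2 h to 24 h was -1.19 (SE 0.29, edgeR adjusted p = 0.0272). Irf1 stood at 271, 242 and 241 CPM at 2 h and was lower at 24 h by a log2 fold change of -0.85 (SE 0.15, edgeR adjusted p = 0.000258), still well above the 0 h level. Junb (-1.73, SE 0.30) and Skil (-1.62, SE 0.26), a repressor in TGFbeta signalling, were lower at 24 h, as were Runx1 (-1.60, SE 0.36), Ecel1 (-1.89, SE 0.39) and Itga8 (-1.44, SE 0.32). Skil stood at 80.2, 79.3 and 69.1 CPM at 2 h and at 25.7, 22.4 and 26.6 CPM at 24 h, against 10.5 to 14.9 CPM at 0 h. The change of Cd274 from 2 h to 24 h did not pass the threshold (log2 fold change -0.45, SE 0.39, adjusted p = 0.783 in edgeR).

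Compared with the first response of naive cells, the fold changes of the rechallenged cells were smaller for many genes. Naive cells given IFNγ for 24 h had 82 higher genes (0.855%) and 3 lower (0.0313%) than their controls, and 63 genes were called higher in both responses, 58.9% of the 107 and 76.8% of the 82. The 2 responses share no library. The 107 risen genes, which were chosen on the 1-week response, had a median log2 fold change of 2.17 in naive cells with genes of few control counts set to their bound or count ratio (2.55 as fitted). A test of the difference between the responses called 28 genes with a lower log2 fold change at 1 week (0.292%) and 3 with a higher one (0.0313%). Of the 28, 22 rose at 1 week, so their response was smaller. Sestd1, Gm42427, mt-Nd4l and Luc7l fell at 1 week, and B2m and H2-D1 did not pass there. The most reduced were Psmb9 (difference of log2 fold changes -5.06, SE 0.47, edgeR adjusted p = 1.96e-10), Iigp1 (-4.75, SE 0.38, edgeR adjusted p = 3.54e-12) and Gbp3 (-3.20, SE 0.44, edgeR adjusted p = 3.98e-06), with Psmb8 and Zbp1, whose naive controls held only 1 and 3 counts. Psmb9 and Iigp1 also had few counts in their naive controls, so the sizes of their differences are uncertain as well. Psmb8 had 111 counts against 1 in naive cells, a ratio of 111 (95% interval 19.4 to 4405), and Zbp1 258 against 3, a ratio of 85.6 (95% interval 29.0 to 418), where their 1-week rechallenge gave log2 fold changes of 1.78 and 2.70.

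The starting levels differed between the responses. Psmb9 was at 1.64, 1.22 and 0 CPM in naive controls and at 79.9, 77.1 and 70.3 CPM in 1-week cells before rechallenge, beside 70.8, 91.2 and 85.3 CPM in naive cells after 24 h of IFNγ. Iigp1 was at 1.64, 4.88 and 1.29 CPM in naive controls and above 130 CPM in each 1-week library at 0 h. Gbp2 had intermediate levels before rechallenge, above the naive controls (3.82, 7.33 and 5.79 CPM) and below naive cells at 24 h (333, 368 and 387 CPM). The 1-week cells without rechallenge had 63 genes higher (0.657%) and 7 lower (0.0730%) than the 1-week controls.

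The 3 genes whose response was larger at 1 week were Tnnt2, Gm31805 and Olfr1369-ps1. Tnnt2, the cardiac form of troponin T, stood at 172, 175 and 211 CPM at 0 h and at 365, 400 and 336 CPM 24 h after the rechallenge, while naive cells had 150, 195 and 191 CPM and then 151, 185 and 153 CPM. The difference of log2 fold changes was 1.13 (SE 0.16, edgeR adjusted p = 1.25e-05). At 2 weeks Tnnt2 rose as well (log2 fold change 0.93, SE 0.11, edgeR adjusted p = 1.50e-07). Gm31805 (1.39, SE 0.30, edgeR adjusted p = 0.0102) and Olfr1369-ps1 (1.13, SE 0.25, edgeR adjusted p = 0.0146) had 0 h levels at 1 week below the naive levels, and their calls were lost in 4 and 5 alternatives.

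The level reached at 24 h was nevertheless higher in the 1-week cells than in naive cells for many genes. With 24 h of IFNγ in both, 63 genes were higher in 1-week cells (0.657%) and 17 lower (0.177%). Genes of MHC class II led: all 4 tested were higher. H2-Aa had no count in naive cells at 24 h and 44 counts in rechallenged 1-week cells, at least 17.3-fold higher, and H2-Eb1 had 1 against 39, a ratio of 46.0 (95% interval 7.78 to 1861). H2-DMb1 was at 4.49, 2.05 and 1.70 CPM in naive cells and at 29.8, 33.2 and 34.2 CPM at 1 week (log2 fold change 3.69, SE 0.49, edgeR adjusted p = 2.11e-06). The 2 groups did not overlap for any of these 3 genes. They were named for the size of this same difference, and the share of all genes separating in this pair was not computed. Before rechallenge, 3 of the 4 class II genes were already higher in the 1-week cells than in the 1-week controls. H2-Aa had 17 counts against 0 there, and H2-Eb1 16 against 0.

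Other genes above the naive level included H2-K1 (log2 fold change 3.08, SE 0.78, edgeR adjusted p = 0.0422), Gm4951 (2.77), H2-DMa (2.66, SE 0.68, edgeR adjusted p = 0.0425), Cd274 (2.06, SE 0.48, edgeR adjusted p = 0.0180), Psmb8 (1.81, SE 0.26, edgeR adjusted p = 1.50e-05) and H2-D1 (1.51, SE 0.17, edgeR adjusted p = 2.27e-08). Cd274 stood at 6.74, 1.02 and 3.82 CPM in naive cells, below all 3 rechallenged libraries. Of the GBPs 5 of 9 were higher (median 1.21), and of the IRGs 8 of 11 (median 1.30). Lower than in naive cells were Sestd1 (-2.01), Gm42427 (-1.74), Inka1 (-1.16), Itga4 (-1.05) and Vstm2a (-1.03), each lost in 3 to 6 alternatives, and Ldha (-0.60, SE 0.12, edgeR adjusted p = 0.00164). H2-D1 and B2m, which the rechallenge did not move past the threshold, were already higher in the 1-week cells at 0 h than in the 1-week controls, by log2 fold changes of 3.24 (SE 0.19) and 1.41 (SE 0.16).

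**Figure D5:**
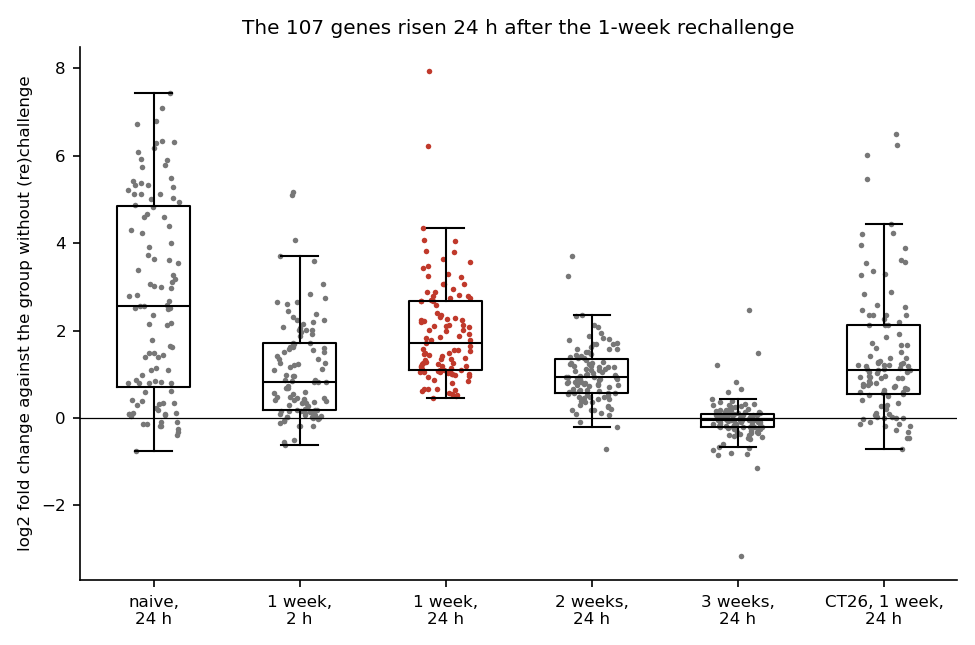
Fitted log2 fold changes of the 107 genes risen 24 h after the 1-week rechallenge (red), in naive cells at 24 h, at 2 h after the 1-week rechallenge, at 24 h after rechallenge at 2 and 3 weeks, and, for the 106 of them tested in the joint fit of both lines, in CT26 at 1 week; boxes are quartiles with the median, and each point is 1 gene. The genes were chosen on the red column, whose fitted median of 1.71 compares with 2.55 in naive cells, 0.925 at 2 weeks, -0.0412 at 3 weeks and 1.09 in CT26.

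Across the durations the same rechallenge gave fewer calls at 2 weeks and none at 3. At 2 weeks 51 genes were higher (0.532%) and 8 lower (0.0834%), and 47 of the 51 were among the 107 at 1 week (92.2% of the 2-week list and 43.9% of the 1-week list). At 3 weeks 0 genes passed in edgeR, the only tool run there, with 351 genes at an unadjusted p below 0.05, and the 107 genes had a median log2 fold change of -0.0412. Replicate 3 of the 3-week 0 h group held only 274719 counts, 19.6% of the median of its line. The 3-week comparison was not run without that library. The difference between the 1-week and 2-week responses was tested: 8 genes had a larger response at 1 week (0.0834%) and 0 a smaller one in edgeR, while DESeq2 called 18 higher and 0 lower differences and edgeR without the filter on low counts 26 higher and 31 lower. At an unadjusted p below 0.05, edgeR had 441 genes in either direction and DESeq2 402. The 8 genes were Gbp2 (difference of log2 fold changes 1.84, SE 0.19, edgeR adjusted p = 7.27e-09), Gbp6 (1.80), Gbp3 (1.67), Rtp4 (1.54), Igtp (1.49), Gbp4 (1.49), Iigp1 (1.34) and Irgm1 (0.89). The last 3 were named after their values were seen, because the count is small.

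In all 8 genes the 3 libraries at 0 h of week 2 lay above the 3 at week 1. The genes were chosen on a difference that includes these levels, so the separation is descriptive and not a test. Its share over all genes tested was not computed. At 24 h the libraries of the 2 durations overlapped in 7 of the 8, and those of Gbp3 were lower at week 2. Gbp2 stood at 214, 238 and 194 CPM at 0 h of week 2 and at 749, 659 and 829 CPM at 24 h, against 72.3, 85.9 and 40.5 CPM and then 936, 928 and 810 CPM at 1 week. Rtp4 stood at 62.1, 67.4 and 48.9 CPM and then 129, 149 and 146 CPM at 2 weeks, where at 1 week it went from 17.0 to 29.9 CPM up to 144 to 196 CPM.

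In CT26, rechallenge at 1 week gave 69 higher genes (0.667%) and 19 lower (0.184%) of 10339 tested in a joint fit, and 47 genes were higher in both lines, 43.9% of the 107 and 68.1% of the 69. Replicate 3 of the CT26 0 h group held 322486 counts, 24.5% of the median of its line, and without it 63 genes were higher, 14 lower and 42 shared. Of the 29 fallen YUMM2.1 genes 0 were among the 19 in edgeR, and 15 had the same sign in CT26. The glycolysis and hypoxia list had a median log2 fold change of -0.27 in CT26, where 0 of 20 tested genes passed. The difference between the lines called 5 genes with a higher log2 fold change in YUMM2.1 (0.0484%) and 0 with a lower one in edgeR, against 11 and 7 from DESeq2 and 13 and 12 without the filter, and 581 genes had an unadjusted p below 0.05 in edgeR. Of the 5, 4 rose in YUMM2.1, among them Gm31805 (difference 1.30, SE 0.27). Rtp4 went in CT26 from 94.5, 87.6 and 62.0 CPM to 137, 150 and 135 CPM, so that the difference of log2 fold changes was 2.06 (SE 0.27, edgeR adjusted p = 5.68e-07). Usp18 started at 57.6, 57.4 and 39.2 CPM in CT26, against at most 1.40 CPM in YUMM2.1 in the same fit, and differed by 3.18 (SE 0.67, edgeR adjusted p = 0.0208). Ifi27, a mitochondrial interferon-induced protein, rose in YUMM2.1 (log2 fold change 1.02, SE 0.15 in the joint fit), stood in CT26 at 117, 119 and 111 CPM before and at 100, 104 and 84.9 CPM after rechallenge, and differed by 1.29 (SE 0.23, edgeR adjusted p = 0.00176). Serpinf1, a secreted serpin that inhibits vessel growth, did not pass in YUMM2.1 (log2 fold change 0.095, SE 0.17 in the joint fit), and its difference of 2.98 (SE 0.57, edgeR adjusted p = 0.00519) came with a fall in CT26 from 13.1, 7.18 and 16.3 CPM to 2.05, 1.61 and 0.903 CPM. Over the 11 GBPs tested in the joint fit the median log2 fold change was 3.61 in CT26 (7 called) and 3.03 in YUMM2.1 (9 called). Gbp2b and Gbp5 were not tested in the fit of YUMM2.1 alone. In the joint fit their YUMM2.1 values were 0 and 1.84 (SE 1.19 for Gbp5), which lowers the YUMM2.1 median.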

How the data were processed

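In 90 samples of 2 mouse tumour lines, RNA was sequenced from transcript 3′ ends. The deposited values are counts per gene, whole numbers that the authors did not normalise or pool, and the submitters' processing notes name Salmon 0.13.1 and mm10. Gene-level import by tximport is described in the study's methods. The gene annotation and any use of molecular identifiers are not given in the sources used here. Of 53697 identifiers, 53668 were matched to symbols.

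Samples were grouped by their labels. Genes of low count were removed by edgeR's group-wise filter, libraries were scaled by TMM, and edgeR 4.0.16 (R 4.3.3, limma 3.58.1) fitted quasi-likelihood models over the 15 YUMM2.1 groups (9589 genes) or over both lines (10339 genes). Adjusted p is Benjamini-Hochberg over all genes of a comparison with a threshold of 0.05, and SE is the log2 fold change divided by the root of F. CPM values use the TMM-scaled library sizes, except those of the marker lists, which use totals. Responses were compared by the difference of 2 contrasts in one model. DESeq2 1.42.0, scaling by totals, no filter, a fit of only the compared groups, a block for the replicate number and leaving out each library were tried as alternatives, 11 for each gene of the rechallenge comparison. A fold against a group with no count uses a floor of 3 counts over the group, and a group of 1 to 3 counts is given as a ratio with an exact interval; both cover counting error only.

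The members and the 34 gene lists were chosen with earlier results of these data known. Named genes were the 20 risen and 10 fallen with the largest changes among called genes whose groups did not overlap, the 5 largest in each direction in the other tested comparisons, and list members. The shallowest and deepest YUMM2.1 libraries held 274719 and 3161276 counts, those of CT26 295157 and 2205285. The study's methods mention discarded samples without naming them, and all libraries were kept. Some list members are not reported here by name. In simulated counts of 9589 genes for the rechallenge comparison, 81.5% of 200 genes changed by a log2 of 2 were recovered, with 12 false calls. Replicates of the 2 groups differed by more than counting noise in every pair (chi-square per degree of freedom 2.43 to 7.05), so none was a repeat deposit. Promoters are from RefSeq on GRCm38.p6.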

Additional observations from a re-analysis of the deposited data

Results flagged for a closer look

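The tested differences between responses are listed here with their sizes as differences of log2 fold changes, and no explanation of them was tested. Between the 1-week rechallenge and the first response of naive cells, edgeR's adjusted p was below 0.05 with a larger response at 1 week for Gm31805 (1.39, SE 0.30), Tnnt2 (1.13, SE 0.16) and Olfr1369-ps1 (1.13, SE 0.25). The response was smaller at 1 week for Psmb9 (-5.06, SE 0.47), Iigp1 (-4.75, SE 0.38), Psmb8 (-4.53, SE 0.82), Zbp1 (-3.60, SE 0.53) and Gbp3 (-3.20, SE 0.44). The fitted values of Psmb8 and Zbp1 rest on 1 and 3 counts in the naive controls, and those of Psmb9 and Iigp1 also rest on few. Tnnt2, Psmb9, Iigp1, Psmb8, Zbp1 and Gbp3 were called in all 17 alternatives of this comparison.

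Between 1 and 2 weeks of exposure, the response to rechallenge was larger at 1 week for Gbp2 (1.84, SE 0.19), Gbp6 (1.80, SE 0.38), Gbp3 (1.67, SE 0.26), Rtp4 (1.54, SE 0.26) and Igtp (1.49, SE 0.23), of which Gbp6 lost its call in 8 of 17 alternatives and the other genes in none.

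Between the lines at 1 week, the response was larger in YUMM2.1 for Usp18 (3.18, SE 0.67), Rtp4 (2.06, SE 0.27), Gm31805 (1.30, SE 0.27) and Ifi27 (1.29, SE 0.23). The difference for Serpinf1 (2.98, SE 0.57) came with a fall in CT26. Usp18 lost its call in 9 alternatives, Gm31805 in 6 and Serpinf1 in 3, and Rtp4 and Ifi27 kept theirs in all 18.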

How the results depend on the processing

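Of the genes called in the rechallenge comparison, 63 of 107 risen and 6 of 29 fallen were called in all 11 alternatives and 0 changed direction. The count of 136 was 143 with DESeq2, 154 with totals as the only scaling, 196 without a filter (124 higher and 72 lower, 63.3% higher against 78.7%) and 90 (81 and 9) when only the 2 groups were fitted. Without a filter the naive difference gave 100 genes (23 with a higher and 77 with a lower log2 fold change at 1 week), the 2-week difference 57 (26 and 31), the level against naive cells 149 and the line difference 25. The 2-week difference gave 18 with DESeq2 and 13 with totals, and the line difference 18 and 12 (11 higher and 7 lower in YUMM2.1, then 7 and 5). The naive difference gave 12 higher and 32 lower with DESeq2, and 8 and 29 with totals. Leaving out single libraries gave 100 to 144 genes for the rechallenge, 24 to 39 for the naive difference, 46 to 74 for the level against naive cells, 5 to 11 for the 2-week difference, 40 to 80 for 24 h against 2 h and 2 to 6 for the line difference, and leaving out the shallow CT26 0 h replicate 3, chosen after seeing the data, gave 77 genes for the CT26 rechallenge in place of 88. The libraries that moved a count by more than 1.5 times were naive 24 h replicate 1 (51) and 1-week 24 h replicate 2 (46) for the level against naive cells; 1-week 2 h replicate 2 (40) and 1-week 24 h replicates 1 and 2 (41 each) for 24 h against 2 h; 1-week 24 h replicates 1 and 2 and 2-week 0 h replicate 2 (5 each) for the 2-week difference. For the line difference they were CT26 0 h replicates 1 and 2, YUMM2.1 0 h replicate 3 and 24 h replicate 1 (3 each) and CT26 24 h replicates 2 and 3 (2 each). The cause of these shifts was not tested. Same-numbered libraries did not deviate together (correlations -0.057, 0.081 and 0.024), and with the replicate number as a block the counts were 135, 34, 8, 72, 76 and 7 for the rechallenge, the naive difference, the 2-week difference, 24 h against 2 h, the level against naive cells and the line difference. Of 363 list values under the alternatives 306 stayed within their limits and 57 moved. With a stricter ISRE, with a G before the first TTTC, the share of risen promoters was 18.2% in place of 30.3%. At these depths genes of a few counts, such as H2-Aa and Isg15, can be compared only roughly.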

Other observations

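Of the 107 risen genes 43 were in none of the gene lists, as were 24 of the 29 fallen. Of the risen genes 54 and of the fallen 15 overlap another annotated gene, where reads near the 3′ end could be assigned to either.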
